A study of Mus musculus with 66 samples.

Results

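The genes that write and erase DNA methylation were followed in E14 cells, a line of mouse embryonic stem cells, with and without a deletion at Praf2. The set holds 10 genes, Dnmt1, Dnmt3a, Dnmt3b, Dnmt3l, Uhrf1, Tet1, Tet2, Tet3, Tdg and Zfp57. They were chosen by name and matched through their Ensembl identifiers. All 10 were found among the 55487 genes of the RNA tables, and all 10 passed the filter on low counts that left 15421 genes for testing.

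Wildtype cells gave 3 RNA libraries. Cells whose genotype is given as a deletion of a G4, a G-quadruplex, at Praf2 gave 4 libraries, 2 named GDel1 and 2 named GDel2. All were untreated E14 cells grown with 15% FBS, LIF, a GSK inhibitor at 3 µM and a MEK1/2 inhibitor at 1 µM, so wildtype and deletion cells shared the inhibitors. Whether GDel1 and GDel2 come from different clones, and replicates from different cultures, is not in the labels, so p-values measure only the spread between these samples, which may be technical.

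DNA methylation in mammals sits mainly on cytosines of CpG dinucleotides. De novo enzymes of the DNMT3 family place it, DNMT1 copies it onto the new strand after replication with the help of UHRF1, and TET enzymes oxidise it so that TDG and base excision repair can restore the plain cytosine. Embryonic stem cells kept with GSK and MEK inhibitors are known for low global methylation, with imprinted regions protected by ZFP57. Methylation itself was not measured in these libraries.

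Promoter sequences are shown for the 3 members with the largest differences in GDel2, since the deleted element is of the G-quadruplex kind. The motif searched was 4 runs of 3 or more G with 1 to 7 bases of any kind between them, on both strands. A run of C in the lines below is a run of G on the opposite strand. Sequences are the RefSeq windows of up to 250 bases before a transcript start in GRCm38.p6, written along the gene's strand, with the matches in capitals. Only windows with a match are printed. The Dnmt3a window shown is chr12:3891494-3891743 on the plus strand, before a start inside the gene, with 2 matches on the opposite strand. The other Dnmt3a windows, chr12:3806730-3806979 and chr12:3806910-3807159, had 0 matches. The Dnmt3b window is chr2:153649199-153649410 on the plus strand, the 212 bases before the gene's first base, with 1 match on each strand. The Tet3 window is chr6:83441679-83441928 on the minus strand, before a start inside the gene, with 1 match on the given strand.
Dnmt3a: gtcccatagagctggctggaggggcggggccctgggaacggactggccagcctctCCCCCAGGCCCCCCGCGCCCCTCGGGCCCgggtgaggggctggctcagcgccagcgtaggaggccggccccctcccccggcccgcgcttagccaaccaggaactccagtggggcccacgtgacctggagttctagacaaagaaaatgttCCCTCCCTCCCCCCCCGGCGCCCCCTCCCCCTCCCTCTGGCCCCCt
Dnmt3b: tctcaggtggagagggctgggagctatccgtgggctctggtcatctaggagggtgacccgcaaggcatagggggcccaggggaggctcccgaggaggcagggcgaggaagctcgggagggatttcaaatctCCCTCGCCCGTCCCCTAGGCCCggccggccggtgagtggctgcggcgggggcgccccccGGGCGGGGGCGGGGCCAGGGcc
Tet3: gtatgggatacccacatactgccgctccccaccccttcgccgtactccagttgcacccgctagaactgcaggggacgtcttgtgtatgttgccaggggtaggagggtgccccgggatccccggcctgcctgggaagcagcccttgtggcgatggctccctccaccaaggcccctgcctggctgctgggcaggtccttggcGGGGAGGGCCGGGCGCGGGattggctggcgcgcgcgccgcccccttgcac

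All 10 members had at least 1 window in the RefSeq table, 19 windows in all. The motif was in 7 of the 19 windows, from 6 members (Dnmt3a, Dnmt3b, Dnmt3l, Dnmt1, Tet3 and Zfp57), and in 16.7% of the 32851 windows of all genes. A match describes the letters only, and no binding or folding was measured at these windows here. Across all windows the median number of CpG dinucleotides was 6, and the members' windows ranged from 2 for a Dnmt1 window to 51 for that of Tet2.

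Depth was 12316853 to 18762704 expected counts per library. Praf2 lay at 27.5 to 30.6 CPM (counts scaled by library size) in wildtype, at 10.1 and 9.26 in GDel1 and at 13.1 and 14.1 in GDel2, lower in every deletion library. Mitochondrial transcripts took 6.30 to 6.89% of counts in wildtype, 9.91% in GDel1 replicate 1, 4.83% in GDel1 replicate 2, 6.19% in GDel2 replicate 1 and 9.60% in GDel2 replicate 2. The GDel1 replicates lay farther apart than any other pair of replicates (chi-square per degree of freedom 64.9, against 21.3 in GDel2 and 4.66 to 7.04 in wildtype). Naive pluripotency markers, 12 of 12 detected, summed to 5615 to 5700 CPM in wildtype, 5192 to 5376 in GDel1 and 5107 to 5310 in GDel2. Of these 12, 2 rose and 4 fell in GDel2 against wildtype (edgeR adjusted p under 0.05), with a median log2 fold change of -0.17. Of all genes tested, 17.4% rose and 15.6% fell in that comparison. Of 8 fibroblast feeder markers, Col3a1, Dcn, Postn and Twist2 were at 0 in every library, and the sum of the 8 was at most 3.16 CPM. Summed levels of 8 markers each of the trophoblast and 2-cell-like states were higher in GDel2 (21.3 to 23.4 and 20.9 to 22.1 CPM) than in wildtype (9.40 to 11.4 and 2.60 to 3.36). GDel1 had 8.77 to 9.52 and 1.35 to 2.01 CPM. In GDel2 against wildtype all 6 tested 2-cell-like markers rose. Among them Zscan4d (0.421 to 3.71 CPM), Gm5662 (0.328 to 3.42), Usp17lb (0.188 to 1.17) and Gm8300 (0.0977 to 2.28) passed the filter only through GDel2. A rise of tested markers was thus partly fixed by the filter, and their count adds no support. Of 5 tested trophoblast markers 2 rose, Eomes (4.39 to 16.9 CPM) and Krt8 (1.67 to 4.26 CPM), and 3 fell, with a median log2 fold change of -1.35. Primitive endoderm markers summed to 109 to 115 CPM in wildtype, 71.3 to 97.1 in GDel1 and 69.0 to 93.7 in GDel2. Lama1 made up most of that sum. Of 3 tested in GDel2, Lama1 fell (110 to 77.5 CPM) and Gata4 rose (0.657 to 1.71 CPM), with a median of 0.11. Formative markers summed to 35.1 to 36.3 CPM in wildtype, 33.0 to 36.7 in GDel1 and 43.2 to 48.8 in GDel2. Of 5 tested formative markers 2 rose in GDel2, among them Zic2 (16.1 to 36.9 CPM), and 3 fell, among them Cdh2 (10.9 to 2.87 CPM), with a median of -0.75. The other called markers of the trophoblast and formative lists, named after their values were seen, were Pou3f1, which rose, and Cdx2, Gata3, Ascl2, Otx2 and Lef1, which fell. The part of these differences in the results was not tested, and in bulk RNA fewer cells of a type and less RNA per cell cannot be told apart.

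Per transcript length, measured as TPM (transcript abundance scaled to a fixed sum), the TET dioxygenase Tet1 was the most abundant member in wildtype and Tet3 the least. Tet1 had 149 ± 11.9 TPM (SD, n = 3). Below it came the imprint guard Zfp57 at 102 ± 11.1 TPM, the maintenance cofactor Uhrf1 at 101 ± 12.4 TPM and Tet2 at 83.1 ± 16.3 TPM, whose ranges overlapped from each gene to the next. Compared within a library, Uhrf1 lay above Tet2 each time, and Zfp57 above Uhrf1 in wildtype replicate 2 alone. The maintenance methyltransferase Dnmt1 stood alone at 35.0 ± 2.81 TPM. The catalytically inactive cofactor Dnmt3l (22.4 ± 2.46 TPM), Dnmt3b (18.7 ± 1.53 TPM) and the glycosylase Tdg (17.3 ± 1.83 TPM) again overlapped from each to the next in their ranges. Within each wildtype library they stood in this order. Dnmt3a, at 6.68 ± 1.22 TPM, lay below all of these, and Tet3, at 0.453 ± 0.0802 TPM, lay lowest of the set.

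In GDel2 the order of Dnmt3a and Dnmt3b was the other way round. Dnmt3a had 10.7 ± 0.424 TPM (SD, n = 2) and Dnmt3b 8.10 ± 1.47 TPM, so that Dnmt3a lay above Dnmt3b in both GDel2 libraries and below it in every other library. The range of Tet2, at 107 ± 9.35 TPM, overlapped that of Tet1, at 121 ± 21.8 TPM, though Tet1 lay above Tet2 within each GDel2 library. Tet3 remained the lowest at 1.49 ± 0.403 TPM. In GDel1, Tet1 was still first (82.3 ± 10.9 TPM) and Tet3 last (0.290 ± 0.0424 TPM). The range of Tet1 overlapped that of Uhrf1, though Tet1 lay above Uhrf1 within each GDel1 library. TPM is scaled to a fixed sum per library, and on log2(TPM + 1) the median of all tested genes against wildtype was -0.30 in GDel1 and -0.05 in GDel2, against 0.00 and 0.01 on scaled counts. Levels between groups are therefore compared below on scaled counts.

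**Figure D1:**
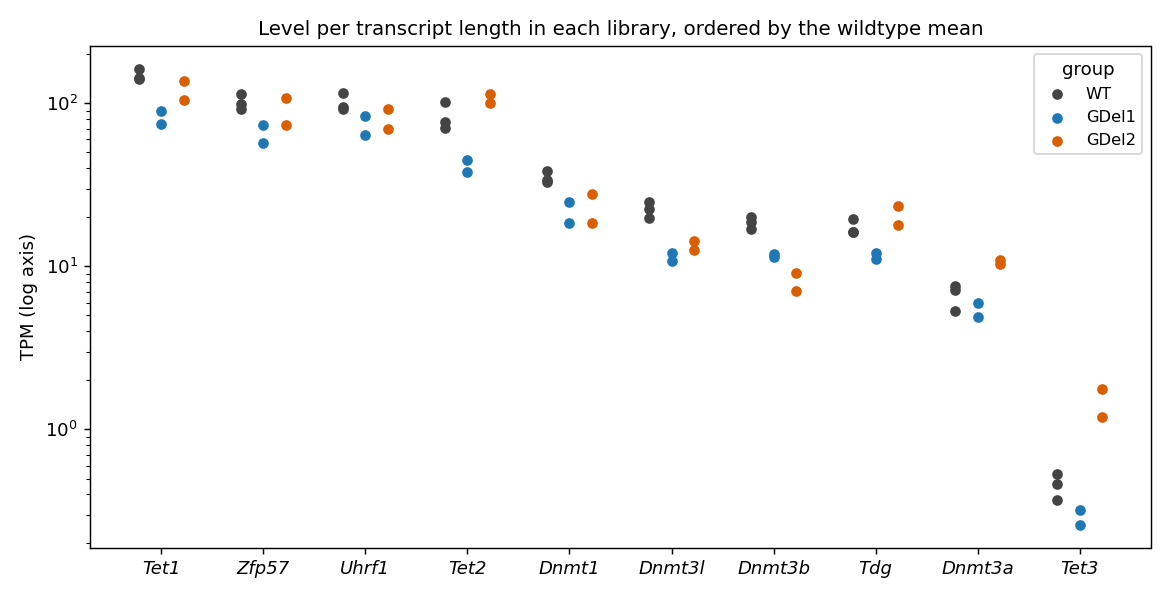
TPM (log axis) of each of the 10 genes in each library, with genes ordered by their wildtype mean and colours for wildtype, GDel1 and GDel2. Tet1 stands highest in wildtype at 149 TPM and Tet3 lowest at 0.453 TPM, and Dnmt3a lies above Dnmt3b in the 2 GDel2 libraries alone.

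GDel2 against wildtype asked which of these genes differed in the second deletion. The de novo methyltransferase Dnmt3a and the erasers Tet2, Tet3 and Tdg rose, while Dnmt3b, Dnmt3l and Dnmt1 fell. Uhrf1, Tet1 and Zfp57 did not pass the threshold, an adjusted p under 0.05 in edgeR's quasi-likelihood test over all genes. These 7 of 10 calls (4 higher, 3 lower) stand beside 33.1% of all genes tested that were called in the same comparison, 17.4% higher and 15.6% lower. Of the members, 9 had GDel2 and wildtype libraries that did not overlap, against 63.2% of all genes. At an unadjusted p under 0.05 the count was 7 as well, beside 43.9% of all genes. The median log2 fold change of the 10 was -0.14, beside 0.01 for all genes.

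Dnmt3b (ENSMUSG00000027478, chr2:153649411-153687730), a de novo methyltransferase that is prominent in early embryonic cells, had 85.7, 92.0 and 86.3 CPM in the wildtype libraries, 76.8 and 84.4 CPM in GDel1, and 41.3 and 42.1 CPM in GDel2. Both GDel2 libraries lay below every other library. The level in GDel2 was 2.11-fold lower than in wildtype (log2 fold change -1.08 ± 0.09 SE, edgeR adjusted p = 8.38e-05). This was the smallest p of the 10 genes.

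Dnmt3a (ENSMUSG00000020661, chr12:3801559-3914443), the de novo methyltransferase that is widely used in somatic cells, differed in the opposite direction. It had 33.7, 32.5 and 30.7 CPM in wildtype, 32.6 and 36.3 CPM in GDel1, and 59.7 and 61.5 CPM in GDel2. The GDel2 libraries lay above all others, 1.88-fold higher than wildtype (0.91 ± 0.09 SE, edgeR adjusted p = 1.94e-04). Of 23 neighbouring genes tested within 1 Mb, 3 were higher and 4 lower, with a median of -0.17, beside 0.01 for all genes.

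Dnmt3l (ENSMUSG00000000730, chr10:78042287-78063622), which has no catalytic activity and stimulates DNMT3A and DNMT3B, had 43.4, 45.0 and 41.1 CPM in wildtype, 33.7 and 32.8 CPM in GDel1, and 28.7 and 28.8 CPM in GDel2. All 4 deletion libraries were lower than the 3 wildtype libraries. In GDel2 it fell by 0.58 on the log2 scale (± 0.09 SE, edgeR adjusted p = 0.00152). The calls of Dnmt3a, Dnmt3b, Dnmt3l and Tet3 in GDel2 were kept in every alternative fit that was run.

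**Figure D2:**
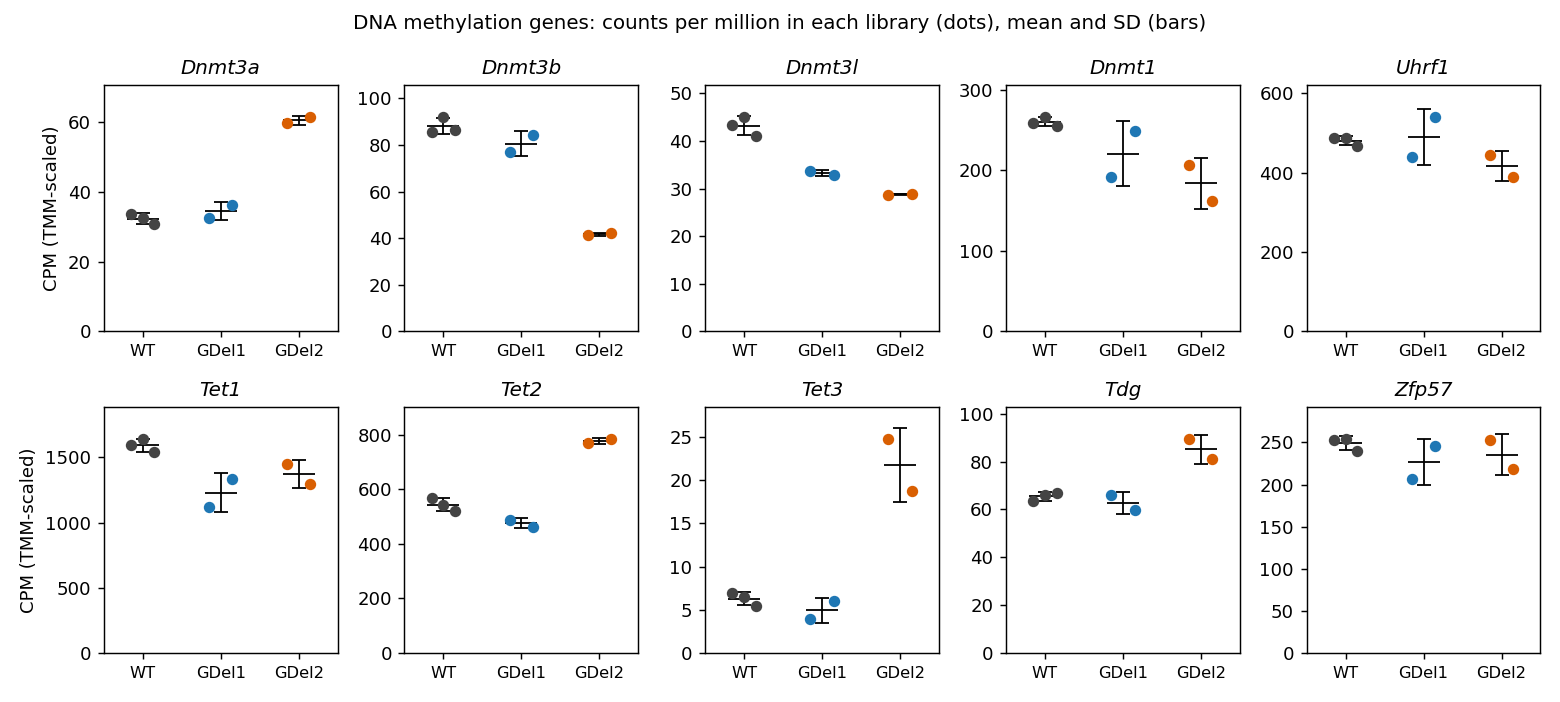
CPM of each member in each library, grouped as wildtype, GDel1 and GDel2, with a panel for each gene and bars for the mean and SD. GDel2 libraries stand apart for Dnmt3a (59.7 and 61.5 CPM), Dnmt3b (41.3 and 42.1 CPM) and Tet3 (24.8 and 18.7 CPM), while those of Zfp57 overlap wildtype.

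Among the de novo writers, the summed TPM of Dnmt3a, Dnmt3b and Dnmt3l was divided differently in GDel2. Dnmt3a held 13.9 ± 1.22% of it in wildtype (SD, n = 3), 18.99 ± 2.56% in GDel1 (SD, n = 2) and 33.2 ± 1.91% in GDel2 (SD, n = 2). Dnmt3b held 39.2 ± 1.12%, 40.8 ± 1.08% and 25.0 ± 2.13%, and Dnmt3l 46.9 ± 0.387%, 40.2 ± 3.65% and 41.9 ± 0.215%. Dnmt3a per Dnmt3b, a ratio of TPM within a library, was 0.310 to 0.383 in wildtype, 0.429 and 0.5 in GDel1, and 1.20 and 1.47 in GDel2. On counts the same ratio was 0.354 to 0.393, 0.425 and 0.430, and 1.45 and 1.46. These shares and ratios carry no test.

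The maintenance genes were less far from wildtype. Dnmt1 (ENSMUSG00000004099, chr9:20907206-20959888) had 259, 266 and 255 CPM in wildtype, 192 and 249 CPM in GDel1, and 207 and 162 CPM in GDel2. Every deletion library was below every wildtype library, and GDel2 fell by 0.50 (± 0.14 SE, edgeR adjusted p = 0.0228). The call was lost without wildtype replicate 1 (adjusted p = 0.0645), 2 (0.0753) or 3 (0.0627), and without GDel2 replicate 2 (0.174), where the difference was -0.34 and the 1 GDel2 library left was assumed to vary like the other groups. With both libraries of high mitochondrial share left out, which leaves 1 library in each deletion, the difference was -0.33, and wildtype alone gives the spread, so no p is given.

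Uhrf1 (ENSMUSG00000001228, chr17:56303337-56323486), which reads hemimethylated DNA and recruits DNMT1, had 487, 487 and 468 CPM in wildtype, 439 and 540 CPM in GDel1, and 445 and 390 CPM in GDel2. The GDel1 libraries lay on both sides of wildtype. The log2 fold change in GDel2 was -0.20 (95% interval -0.46 to 0.05, edgeR adjusted p = 0.190). It passed in the fits without GDel1 replicate 1 (0.0499) or GDel1 replicate 2 (0.0482). Uhrf1 per Dnmt1, in TPM, was 2.79 to 3.01 in wildtype, 3.45 and 3.37 in GDel1, and 3.34 and 3.76 in GDel2, above wildtype in all 4 deletion libraries.

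The erasers differed from each other. Tet3 (ENSMUSG00000034832, chr6:83362373-83457208), the TET enzyme of the oocyte and zygote, had 6.92, 6.49 and 5.41 CPM in wildtype, 3.94 and 5.98 CPM in GDel1, and 24.8 and 18.7 CPM in GDel2. It rested on 94 to 105 counts per wildtype library, 49 and 115 in GDel1, and 314 and 259 in GDel2. Both GDel2 libraries lay above all others, 3.47-fold higher than wildtype (1.80 ± 0.20 SE, edgeR adjusted p = 3.05e-04).

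Genes on chromosome 6, where Tet3 lies, were higher in GDel2 as a group. Over the 658 chromosome 6 genes tested, the median log2 fold change was 0.51, with 51.2% higher and 6.53% lower. Of all genes tested, 17.4% were higher and 15.6% lower. Over the 33 tested genes within 1 Mb of Tet3 the median was 0.49, with 16 higher and 4 lower. Chromosomes 2, 3, 9, 10, 12 and 17, which carry the other members, had medians from -0.10 to 0.01. Within 1 Mb of the other members the medians ran from -0.30 (15 genes around Zfp57) to 0.21 (7 genes around Tet2). Around Dnmt1 15 of 45 genes were lower and 2 higher, beside 17.7% lower on its chromosome 9 and 15.6% of all genes. Around Dnmt3l 7 of 22 were lower and 1 higher, beside 17.8% lower on its chromosome 10. Around Dnmt3b 7 of 28 were lower and 5 higher, and around Zfp57 4 of 15 were lower and 1 higher. The rise of Tet3 exceeded the chromosome 6 median, and its share that goes with the chromosome was not tested. In GDel1 the chromosome 6 median was -0.01.

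**Figure D3:**
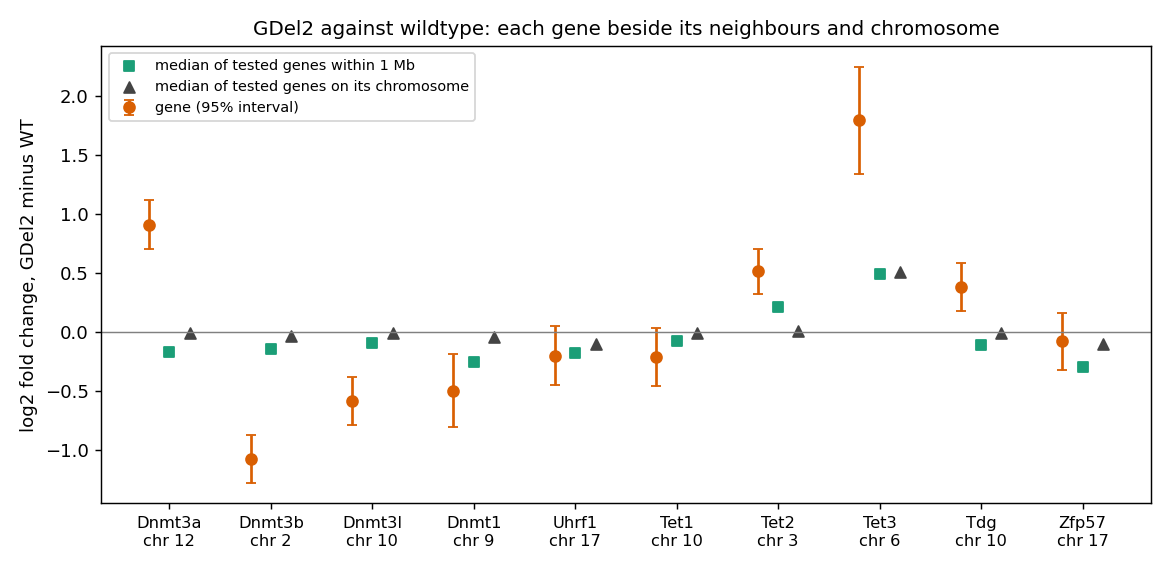
Log2 fold change of each member in GDel2 against wildtype (circles, with 95% intervals) beside the medians of tested genes within 1 Mb (squares) and on the same chromosome (triangles). Tet3 stands at 1.80 with a chromosome 6 median of 0.51, while the medians of the chromosomes of the other 9 genes lie between -0.10 and 0.01.

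Tet2 (ENSMUSG00000040943, chr3:133463677-133545136), a TET enzyme that lacks the CXXC domain of Tet1, had 568, 544 and 519 CPM in wildtype, 489 and 463 CPM in GDel1, and 769 and 786 CPM in GDel2. The GDel1 libraries lay below wildtype and the GDel2 libraries above it. In GDel2 it rose by 0.52 (± 0.08 SE, edgeR adjusted p = 0.00209). On log2(TPM + 1) the difference was 0.38 and did not pass limma (adjusted p = 0.199).

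Tet1 (ENSMUSG00000047146, chr10:62804570-62887469), the main TET enzyme of naive stem cells, had 1596, 1642 and 1539 CPM in wildtype, 1122 and 1333 CPM in GDel1, and 1446 and 1293 CPM in GDel2. All 4 deletion libraries were below wildtype. The log2 fold change in GDel2 was -0.22 (95% interval -0.46 to 0.03, edgeR adjusted p = 0.157). It passed without GDel1 replicate 1 (0.0374) or GDel1 replicate 2 (0.0364).

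Tdg (ENSMUSG00000034674, chr10:82629814-82650799), the glycosylase that removes oxidised methylcytosine, had 63.4, 66.2 and 67.0 CPM in wildtype, 65.9 and 59.6 CPM in GDel1, and 89.6 and 81.0 CPM in GDel2. The GDel2 libraries were above all others, and Tdg rose by 0.38 (± 0.09 SE, edgeR adjusted p = 0.0123). The call was lost without wildtype replicate 1 (0.0582), wildtype replicate 2 (0.0502) or GDel2 replicate 1 (0.0710). On log2(TPM + 1) it was 0.24 (limma adjusted p = 0.386). The expected counts of Tdg, Uhrf1 and Dnmt3b were not all whole, so some of their reads were shared out between genes or copies, and their values are less certain for it.

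Of the summed TPM of the TET genes, Tet1 held 64.3 ± 2.58% in wildtype (SD, n = 3), 66.2 ± 5.59% in GDel1 (SD, n = 2) and 52.4 ± 2.29% in GDel2 (SD, n = 2). Tet2 held 35.5 ± 2.57%, 33.6 ± 5.61% and 46.9 ± 2.37%. Tet3 held 0.194%, 0.233% and 0.640%. The summed TPM of Tet1, Tet2 and Tet3 per summed TPM of Dnmt1, Dnmt3a and Dnmt3b was 3.67 to 4.02 in wildtype, 3.45 and 2.99 in GDel1, and 5.27 and 5.78 in GDel2. The GDel1 libraries were thus below and the GDel2 libraries above the wildtype range.

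**Figure D4:**
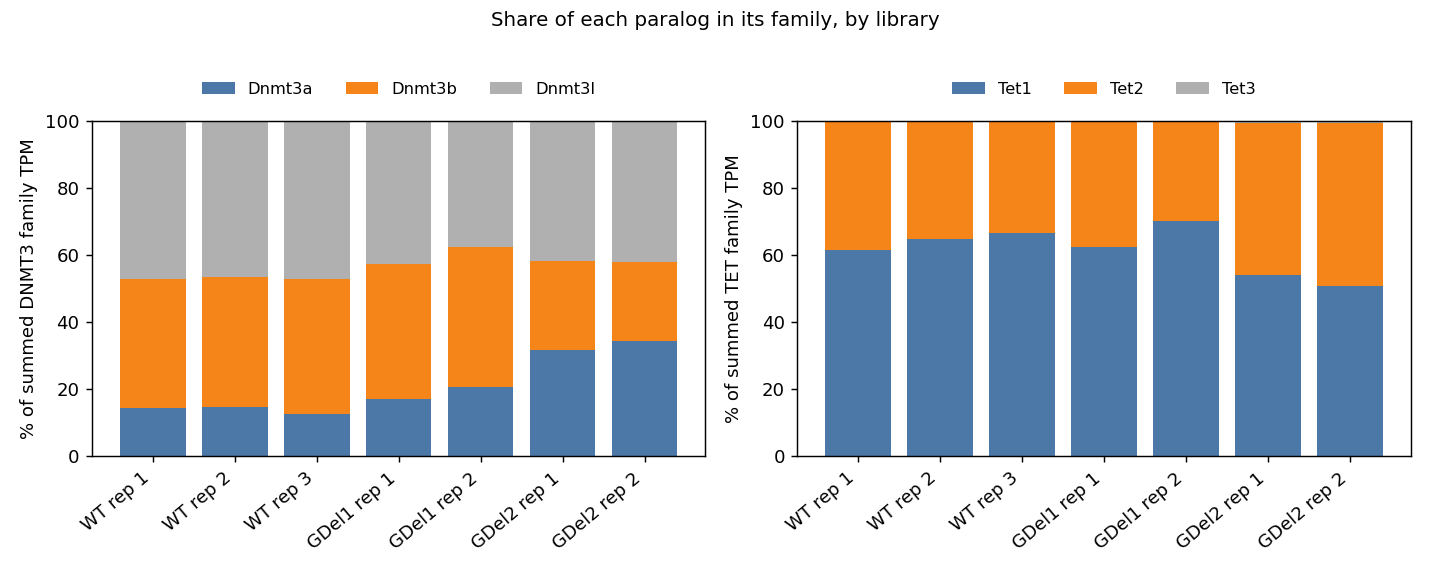
Percent of the summed TPM of Dnmt3a, Dnmt3b and Dnmt3l, and of Tet1, Tet2 and Tet3, held by each gene, as 1 stacked bar per library. The mean of Dnmt3a goes from 13.9% in wildtype to 33.2% in GDel2, and that of Tet2 from 35.5% to 46.9%.

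Zfp57 (ENSMUSG00000036036, chr17:37001163-37010729), a zinc finger protein that binds methylated imprinting control regions and recruits TRIM28, had 253, 254 and 240 CPM in wildtype, 207 and 246 CPM in GDel1, and 253 and 218 CPM in GDel2. Libraries of the 3 groups overlapped. The log2 fold change was -0.14 in GDel1 (95% interval -0.38 to 0.10, edgeR adjusted p = 0.460) and -0.08 in GDel2 (-0.32 to 0.16, adjusted p = 0.597). In GDel2 it was 0.02 without GDel2 replicate 2.

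For 7 of the genes the replicates of both deletions differed in the same direction when ordered by mitochondrial share. GDel1 replicate 1 and GDel2 replicate 2, with 9.91% and 9.60%, had lower CPM than the other replicate of their group for Dnmt1, Uhrf1, Tet1, Tet3 and Zfp57, beside 33.4% of all genes tested. They had higher CPM for Dnmt3l and Tet2, beside 30.7%. The part of the mitochondrial share in this was not tested.

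Effective length, which follows the estimated mix of transcripts, differed between groups for some members. For Tet2 it was 4064, 4306 and 4526 bases in wildtype, 4977 and 5983 in GDel1, and 4451 and 4386 in GDel2. In GDel1 it was longer than in every wildtype library for Uhrf1, Zfp57 and Tet2, beside 12.5% of the 11878 genes with several transcripts, and in GDel2 for Dnmt3l and Uhrf1, beside 9.35%. No member had a shorter one, beside 11.5% of genes in GDel1 and 14.3% in GDel2. Any difference counted, however small. Uhrf1 had an effective length of 3077 to 3131 bases in wildtype, 3151 and 3156 in GDel1, and 3170 and 3165 in GDel2. Dnmt3l had 1213 to 1281 in wildtype and 1316 and 1284 in GDel2, and Zfp57 1558 to 1615 in wildtype and 1665 and 1634 in GDel1. TPM divides by this length, and its part in the TPM values was not tested.

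GDel1 against wildtype gave 0 of 10 calls in edgeR, beside 0.376% of all genes called (0.162% higher, 0.214% lower). This comparison uses the same wildtype libraries as that of GDel2. At an unadjusted p under 0.05 there were 2 members, Dnmt3l and Tet1, beside 24.5% of all genes, and DESeq2 called 1, Tet1 (adjusted p = 0.0266). Libraries of 5 members did not overlap wildtype, all lower (Dnmt3b, Dnmt3l, Dnmt1, Tet1 and Tet2), beside 43.5% of all genes in either direction. The median log2 fold change of the 10 was -0.16, beside 0.00 for all genes.

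The values nearest the threshold in GDel1 were those of Dnmt3l and Tet1. Dnmt3l had a log2 fold change of -0.38 (95% interval -0.58 to -0.18, edgeR adjusted p = 0.0607), and it passed without GDel1 replicate 1 (0.0360). Tet1 had -0.38 (-0.62 to -0.13, adjusted p = 0.0878), and it passed without GDel1 replicate 2 (-0.51, 0.0311). Those fits leave GDel1 with a single library that is assumed to vary like the other groups. For Dnmt3a the value was 0.10 (-0.12 to 0.31), for Dnmt3b -0.13 (-0.32 to 0.07), for Dnmt1 -0.24 (-0.54 to 0.07) and for Tet2 -0.19 (-0.39 to 0.00), with adjusted p of 0.568, 0.400, 0.320 and 0.211. Uhrf1 was at 0.03 (-0.22 to 0.28), Tdg at -0.06 (-0.27 to 0.14) and Tet3 at -0.31 (-0.81 to 0.19), with adjusted p of 0.909, 0.707 and 0.421.

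The calls in GDel1 differed between edgeR on counts and limma on TPM, which changes the unit and the test together. With edgeR and another scaling of the counts (relative log expression), 0 members and 55 genes were called. On log2(TPM + 1), limma called 7 of the 10 members in GDel1, all lower: Dnmt3b, Dnmt3l, Dnmt1, Tet1, Tet2, Tdg and Zfp57. Of all genes it called 3250, 30 higher and 3220 lower, where edgeR called 58, 25 higher and 33 lower. The values of these 7 ran from -0.97 for Tet2 to -0.54 for Tdg, below the median of all genes of -0.30 on that scale. Dnmt3a was at -0.25 there, which is above that median.

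GDel2 against GDel1 tested the difference between the deletions directly, without wildtype in the contrast. Here 5 of 10 members were called, Dnmt3a, Tet2, Tet3 and Tdg higher in GDel2 and Dnmt3b lower, beside 27.7% of all genes (14.8% higher, 12.8% lower). On log2(TPM + 1), where the median of all genes was 0.24, limma called 3383 genes higher and 364 lower, against 2289 and 1979 in edgeR. An unadjusted p under 0.05 held for the same 5, beside 40% of all genes, and libraries of 6 members did not overlap, beside 59.1%. The log2 differences were 0.81 for Dnmt3a (edgeR adjusted p = 7.45e-04), -0.95 for Dnmt3b (2.68e-04), 0.71 for Tet2 (9.76e-04), 2.11 for Tet3 (3.86e-04) and 0.44 for Tdg (0.0116). The call of Tdg was lost without GDel2 replicate 1 (0.0624). That of Dnmt3b was not made by limma on log2(TPM + 1), where its difference was -0.48 (adjusted p = 0.0745).

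The other 5 members did not pass between GDel2 and GDel1. Dnmt3l differed by -0.21 (95% interval -0.43 to 0.02), Dnmt1 by -0.26 (-0.60 to 0.07), Uhrf1 by -0.23 (-0.51 to 0.04), Tet1 by 0.16 (-0.11 to 0.43) and Zfp57 by 0.05 (-0.21 to 0.32). Their edgeR adjusted p values were 0.151, 0.221, 0.185, 0.353 and 0.758. Without GDel1 replicate 1, Dnmt1 (-0.44, adjusted p = 0.0242) and Uhrf1 (-0.38, 0.0152) passed, with 1 GDel1 library that is assumed to vary like the other groups. With both libraries of high mitochondrial share left out they were at -0.29 and -0.30, a difference of 1 library from 1 library, given without a p.

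**Figure D5:**
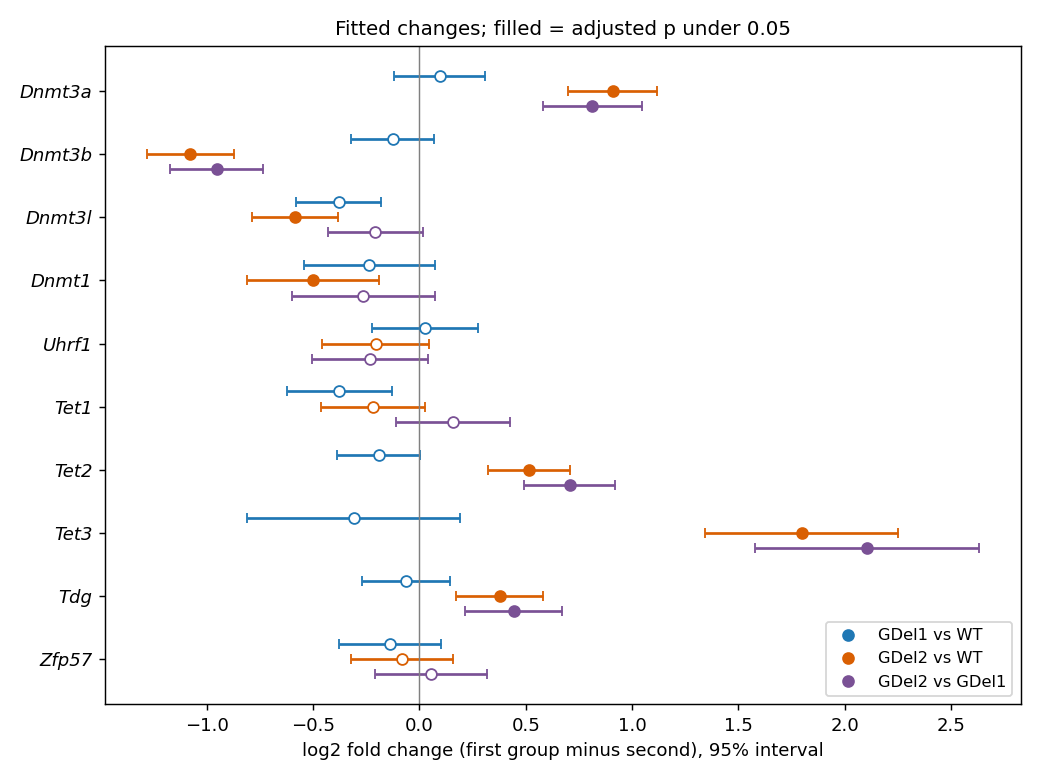
Log2 fold change of each member with its 95% interval for GDel1 against wildtype, GDel2 against wildtype (which share the wildtype libraries) and GDel2 against GDel1, with filled circles for an edgeR adjusted p under 0.05. For GDel2 against wildtype the interval lies above 0 for Dnmt3a, Tet2, Tet3 and Tdg and below 0 for Dnmt3b, Dnmt3l and Dnmt1, and none of the 10 is called in GDel1.

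With GDel1 and GDel2 joined as 1 deletion group of 4 libraries, edgeR called 0 of 10 members and 0% of all genes. At an unadjusted p under 0.05 there were 4 members, Dnmt3a, Dnmt3l, Dnmt1 and Tet1, beside 19% of all genes. Dnmt3l had a log2 fold change of -0.48 ± 0.10 SE (edgeR adjusted p = 0.144), and DESeq2 called it alone of the 10 (adjusted p = 0.00348). Libraries of 4 members did not overlap wildtype, all lower (Dnmt3b, Dnmt3l, Dnmt1 and Tet1), beside 21.7% of all genes in either direction. The distance of GDel1 from GDel2 adds to the error of this fit. When the mean of GDel1 and GDel2 was taken from the fit with 3 groups, 6 members were called, beside 20.4% of all genes (9.6% higher, 10.8% lower): Dnmt3a and Tet3 higher, and Dnmt3b, Dnmt3l, Dnmt1 and Tet1 lower. For Tet3 this mean (0.74) joins values of opposite sign, -0.31 in GDel1 and 1.80 in GDel2.

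The genes most like Dnmt3b over the 7 libraries, by Pearson's r of log2 CPM, were Decr2 (0.997), Svil (0.996) and Dgkh (0.996). Decr2 went from 30.1 CPM in wildtype to 28.7 in GDel1 and 14.1 in GDel2, Svil from 29.9 to 23.6 and 6.90, and Dgkh from 61.2 to 58.4 and 35.1. Of all genes tested, 521 had an r above 0.95 with Dnmt3b, and the points share their libraries and groups.

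Genes that work with the members were counted from 9 lists, for GDel2 against wildtype with edgeR, beside 33.1% of all genes called and a median of 0.01. Of 7 partners of maintenance methylation, 2 were called, both higher: Cdca7l, a relative of the HELLS cofactor CDCA7 (0.97, adjusted p = 5.89e-04), and the replication clamp Pcna (0.71, 0.00139). Of the 8 genes that guide or restrain de novo methylation, 7 were tested and 3 were lower. These were the transcription factor gene Sall4 (-0.81, 0.00186), the H3K36 methyltransferase genes Nsd1 (-0.45, 0.00758) and Setd2 (-0.32, 0.0280). The call of Setd2 was lost without any single wildtype or GDel2 library (0.0598 to 0.108). Of 8 cofactors of Zfp57, Cbx3 (0.79, 8.61e-04), a heterochromatin protein gene on chromosome 6, was higher, and the histone chaperone gene Daxx (-0.41, 0.0252) and the corepressor gene Trim28 (-0.39, 0.0376) were lower. The calls of Daxx (0.0656 to 0.176) and Trim28 (0.0861 to 0.266) were lost without any single wildtype library or GDel2 replicate 2.

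Around the erasers, 8 of 9 TET partners and genes of cofactor supply were tested. Idh2, a mitochondrial source of the TET cosubstrate 2-oxoglutarate, fell from 110 to 58.2 CPM (-0.92, edgeR adjusted p = 1.10e-04). Hcfc1, a partner of OGT, fell by 0.65 (0.0119), a call lost without GDel2 replicate 2 (0.0982). The pluripotency factor Nanog, on chromosome 6, rose by 0.40 (0.00956), a call lost without wildtype replicate 1 (0.0531). Of 16 tested genes of base excision repair and deamination, 5 rose and none fell. These are 31.25% of the list, near the 33.1% of all genes called, and the median was 0.05. Among them were Polb, the repair polymerase (11.1 to 24.1 CPM; 1.12, 2.10e-04), Apobec2, of the deaminase family (2.80 to 8.63 CPM; 1.62, 5.46e-04) and Mbd4, a glycosylase of mismatched bases on chromosome 6 (0.58, 0.00342). The remaining 2, the glycosylase genes Neil2 (0.52) and Smug1 (0.40), were named after their values were seen.

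Among 7 methyl-CpG readers, 4 fell and none rose, with a median of -0.43. Mbd1 fell from 47.3 to 22.1 CPM (-1.10, edgeR adjusted p = 1.41e-04), Mbd2 by 0.55 (0.0178) and Mbd3, whose product binds methylated CpG weakly and belongs to the NuRD complex, by 0.43 (0.0115). The call of Mbd2 was lost without wildtype replicate 2 (0.0541), wildtype replicate 3 (0.0670) or GDel2 replicate 1 (0.0973), and that of Mbd3 without GDel2 replicate 2 (0.0834). Of 13 tested genes of the cycle that supplies S-adenosylmethionine, the methyl donor, 5 rose and 5 fell, with a median of 0.06. The glycine decarboxylase gene Gldc fell from 86.5 to 35.8 CPM (-1.28, 3.03e-05) and the methionine synthase gene Mtr by 0.80 (2.81e-04), while the methionine adenosyltransferase gene Mat2a, on chromosome 6, rose by 0.65 (8.84e-04). Further calls, named after their values were seen, were Shmt1 (0.59), Mat2b (0.40) and Ahcy (0.40) higher and Tdh (-0.45), Mthfd1 (-0.44) and Mtrr (-0.44) lower.

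Of 28 tested imprinted genes at loci with a germline methylated region, where methylation and Zfp57 act, 16 rose and 5 fell, with a median of 0.80. The 75% called stand beside 76.9% of the S-adenosylmethionine cycle and 33.1% of all genes. Mest, on chromosome 6, had 30.2 to 31.5 CPM in wildtype, 32.4 and 28.1 CPM in GDel1, and 262 and 284 CPM in GDel2 (3.15, edgeR adjusted p = 3.42e-07). Plagl1, a zinc finger gene, had 16.0 to 22.2, then 5.07 and 2.76, then 292 and 307 CPM (3.99, 1.04e-05), and Mirg, a noncoding RNA of the Dlk1-Meg3 locus, had 43.1 to 45.9, then 53.5 and 44.1, then 91.4 and 97.2 CPM (1.08, 1.40e-04). Those that fell, named after their values were seen, were Igf2 (-2.04), Cdkn1c (-1.74), Igf2r (-0.88), Grb10 (-0.67) and Gnas (-0.43). Of 13 tested germline genes whose promoters are known to be methylated in somatic cells, 7 rose and 1 fell, with a median of 1.25. Sycp3, of the synaptonemal complex (1.23 to 5.12 CPM; 2.04, 3.40e-04), Fkbp6, of the piRNA pathway (4.65 to 11.3 CPM; 1.28, 5.08e-04), and Dazl, a germ cell RNA-binding protein gene (9.27 to 19.4 CPM; 1.06, 6.74e-04), rose at low levels. The gene that fell was Stk31 (-0.85, 0.00896), named after its value was seen. On log2(TPM + 1), limma did not call Setd2, Daxx, Trim28, Nanog, Mbd2, Mbd3, Mbd4, Mtr or Mat2a in GDel2 (adjusted p = 0.0558 for Daxx to 0.286 for Nanog).

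In GDel1 against wildtype, 0 genes were called in 8 of the 9 lists. In the imprinted list, Plagl1 (-2.32, edgeR adjusted p = 0.0159) and Peg10, a retrotransposon-derived gene (-1.17, 0.0227), fell and none rose. The call of Plagl1 was lost without wildtype replicate 1 (0.0629), wildtype replicate 2 (0.0954) or GDel2 replicate 1 (0.0589), and that of Peg10 without any single wildtype library (0.124 to 0.134). Plagl1 thus fell in GDel1 and rose in GDel2 against the same wildtype libraries.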

How the data were processed

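RNA of 7 of the 66 samples was analysed, and the other 59 are not analysed here. Per the labels, ribosomal RNA was removed from total RNA before a strand-marking library kit. The submitters' processing notes name STAR, RSEM and mm10, without versions. For the annotation release and strand setting nothing is given in the sources used here. The deposited tables hold expected counts, estimated by the authors' tool without scaling for depth, and TPM, scaled by the authors over effective length to a fixed sum. The deposited FPKM values were not used, and the deposited lengths and effective lengths, in bases, served as description.

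Expected counts (6.91 to 8.22% of all genes per library not whole) were rounded. Genes were kept by filterByExpr (minimum count 10, minimum total 15) and fitted in R 4.3.3 with edgeR 4.0.16 (TMM, robust quasi-likelihood F test), with Benjamini-Hochberg adjustment over the 15421 genes tested. A fit with 3 groups gave the contrasts of each deletion with wildtype and of GDel2 with GDel1. Deletion against wildtype was a fit with 2 groups. CPM uses the TMM library size. SE is the log2 fold change over the root of F. Alternatives were DESeq2 1.42.0, limma 3.58.1 on log2(TPM + 1) and log2(TPM + 0.1), other filters and scaling, a replicate block, and leaving out libraries. Fits were tested on simulated data with 200 genes set to change 2-fold. Of these, 56 to 72% were recovered, depending on the comparison, with 13 to 21 false calls. The 72% is for the joined deletion group, with GDel1 and GDel2 set to change alike. In the data 27.7% of genes were called between them, so that value does not describe the joined fit. Each gene was also given the same spread in all groups, though replicate distances differed between groups in the data. In GDel1 against wildtype 61.5% were recovered, with 21 false calls, so true changes can be missed there. In every comparison of this simulation, false calls were a larger share of calls than the threshold on adjusted p aims for. Calls in the data can therefore include more false ones than that threshold implies. Positions come from RefSeq GRCm38.p6, matched by symbol.

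The members, lists and rule for named genes were chosen with earlier results of these data known. The rule took all members. From each pathway list it took up to 3 genes called in GDel2 against wildtype and up to 3 in GDel1 against wildtype, by smallest p. It also took the 2 highest genes of each marker list, which are given here mostly as sums, and the 3 genes most like the member of smallest p. The chromosome windows of 1 Mb, effective lengths and promoter motif were added after the data had been seen. Depth limits low genes such as Tet3 most. The results of some genes of the lists are not reported here.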

Additional observations from a re-analysis of the deposited data

Results flagged for a closer look

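The effects of GDel1 and GDel2, each against wildtype, differed for 5 of the 10 genes by the test of GDel2 against GDel1 (edgeR, adjusted over all genes). In the same test 27.7% of all genes were called. The calls of Tdg and Dnmt3b were not kept in every alternative fit. The log2 difference was 0.81 for Dnmt3a, -0.95 for Dnmt3b, 0.71 for Tet2, 2.11 for Tet3 and 0.44 for Tdg. GDel1 and GDel2 carry the same genotype label. Both GDel2 libraries lay outside the range of the GDel1 libraries for each of these genes, beside 59.1% of all genes whose libraries did not overlap. The genes were picked by a test on these same values, so this adds no support.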

How the results depend on the processing

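Genes called in GDel1 against wildtype (58) were 993 with DESeq2, 2357 with no filter on low counts, 3250 by limma on log2(TPM + 1), 3531 on log2(TPM + 0.1) (33 higher, 3498 lower), 1 with the replicate block, 4 to 2034 when 1 library was left out, and 4262 when GDel1 replicate 1 and GDel2 replicate 2 were left out together (1 library per deletion, with the spread from wildtype alone). Members called (0) were 1, 1, 7, 7, 0, 0 to 1 and 4 in the same order, the 4 being Dnmt3l, Uhrf1, Tet1 and Tet2. In GDel2 against wildtype (5099 genes, 7 members), limma called 2604 genes on log2(TPM + 1) and 2492 on log2(TPM + 0.1), with 4 members each, the replicate block 2296 with 4, and leaving out 1 library gave 2643 to 6578 with 5 to 9. GDel2 against GDel1 (4268 genes) had 2235 with the block and 2602 to 5617 without 1 library. The deletion group (0) had 969 with DESeq2 and 1 member, 1 with no filter, 2 on log2(TPM + 1), and 3149 with 6 members for the mean of both deletions.

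Whether replicate numbers pair the samples is not in the labels. Correlations of deviations from the group mean, between libraries of the same number, were -0.28 to 0.11. With 2 libraries per deletion the deviations mirror each other, so these values cannot decide it. With the block, the calls of Dnmt1 (0.122), Tet2 (0.0532) and Tdg (0.0903) in GDel2 against wildtype, and of Tdg (0.0687) against GDel1, were lost. So were those of Nsd1 (0.0749), Hcfc1 (0.0706), Mbd4 (0.0520), Mbd3 (0.0871), Nanog (0.106), Setd2 (0.119), Mbd2 (0.125), Daxx (0.128) and Trim28 (0.156) in GDel2, and of Plagl1 (0.141) and Peg10 (0.252) in GDel1 against wildtype.

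None of the values that turned sign was called. On log2(TPM + 1) and log2(TPM + 0.1), these were Dnmt3a (-0.25, -0.29) and Uhrf1 (-0.45, -0.45) in GDel1. In GDel2 against GDel1 they were Dnmt3l (0.22, 0.24), Dnmt1 (0.0721, 0.0746) and Uhrf1 (0.13, 0.13), and in the deletion group Tet2 (-0.30, -0.30) and Tdg (-0.15, -0.16). Leaving out 1 library gave -0.13 to 0.17 for Uhrf1 and -0.14 to 0.0070 for Tdg in GDel1, and for Zfp57 -0.20 to 0.0191 in GDel2 and -0.0709 to 0.18 against GDel1. When both libraries of high mitochondrial share were left out, Zfp57 was at 0.0040, 0.0275 and 0.0156 (GDel1, GDel2, deletion group), and Uhrf1 in the last at 0.0492. The cause of these was not tested.

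On shares of expected counts, Dnmt3a held 19.8%, 23.2% and 46.2% in wildtype, GDel1 and GDel2, Dnmt3b 53.8%, 54.3% and 31.8%, Tet1 74.3%, 71.7% and 63.1%, and Tet2 25.4% in wildtype and 35.9% in GDel2, with GDel1 in between. In GDel1 the order against wildtype was thus the other way round than on TPM for Tet1 and Tet2. List medians on log2(TPM + 1), less that of all genes, were 0.0681 and -0.0661 (GDel1, GDel2) for maintenance partners, -0.0312 and -0.12 for Zfp57 cofactors, -0.23 and -0.35 for TET partners, -0.15 and -0.31 for readers, -0.11 and -0.00444 for the S-adenosylmethionine cycle, 0.0701 and 0.51 for imprinted and 0.0941 and 0.60 for germline genes. In GDel1 they were -0.32 for de novo guides and -0.0442 for base excision repair.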
